A study of Mus musculus with 6 samples.

Results

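The granzyme genes are described here across the 6 RNA-seq libraries of a mouse tumour study. The members were the 9 rows of the deposited gene table with the symbols Gzma, Gzmb, Gzmc, Gzmd, Gzme, Gzmf, Gzmg, Gzmk and Gzmm, out of 6467 genes in that table. The samples were tumour-infiltrating CD8+ T cells, isolated on a BD Aria III sorter, from wild-type C57/B6J mice inoculated with MC38, a mouse colon carcinoma line. The treated group, of 3 libraries, received αPD-1-IL-15-R at 30 µg intraperitoneally on days 14 and 17. Per the study's title, this joins anti-PD-1 to a concealed form of IL-15. The control group, also of 3 libraries, received PBS. Isolation followed the second injection by 48 hours. The labels do not say whether a library came from 1 mouse or a pool, so p-values reflect only sample-to-sample spread, part of which may be technical. No group received the antibody or the cytokine alone.

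Granzymes are serine proteases that killer T cells and natural killer (NK) cells keep in cytotoxic granules. Cathepsin C trims them to their active form, the proteoglycan serglycin holds them in the granule, and perforin lets them into the target cell. Granzyme B cuts after aspartate and can start caspase-dependent death. Granzymes A and K cut after basic residues, and granzyme M after methionine or leucine. Mice also carry granzymes C to G, which lie beside granzyme B and are known mainly from strongly activated mouse killer cells. IL-15 is a cytokine that sustains CD8+ T cells and NK cells and raises granzyme expression in them.

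The genes fall into 3 groups by position in the RefSeq and GENCODE annotations of GRCm38. Gzmb to Gzmg lie together on chromosome 14, Gzma and Gzmk on chromosome 13, and Gzmm on chromosome 10. The 36 coding bases around the catalytic serine, the residue that attacks the substrate, are shown because they let the relatedness of the members be read directly. Capitals mark the serine codon, and the sequences come from the GENCODE transcripts of that build.

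Gzma: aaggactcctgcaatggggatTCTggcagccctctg
Gzmk: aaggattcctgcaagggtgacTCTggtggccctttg
Gzmm: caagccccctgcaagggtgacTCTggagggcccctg
Gzmb: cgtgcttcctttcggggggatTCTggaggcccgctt
Gzmc: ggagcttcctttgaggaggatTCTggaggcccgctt
Gzmd: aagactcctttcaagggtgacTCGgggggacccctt
Gzme: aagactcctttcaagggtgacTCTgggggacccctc
Gzmf: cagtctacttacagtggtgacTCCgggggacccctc
Gzmg: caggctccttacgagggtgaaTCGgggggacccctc

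Over the whole coding sequence, Gzmc to Gzmg were 71.2% to 93.3% identical to each other, Gzmd and Gzme being the closest pair. Gzmb was 66.0% to 76.0% identical to those 5, closest to Gzmc. Gzma and Gzmk were 56.1% identical. Similarity of this kind bears on the values of single genes, since a read that matches several genes has to be divided among them. Of the 50-base stretches of the reference transcripts, 21.5% of those in Gzmd, 19.1% in Gzme, 15.2% in Gzmg, 7.36% in Gzmf and 4.14% in Gzmc also occurred in another member, and none of those in the other 4 genes did. With 100-base stretches the share was at most 0.25% in any member. No source used here gives the read length, so the separate values of Gzmc to Gzmg are uncertain to that extent. Of the 54 deposited read counts of the members, only 5 were not whole numbers, all of them of Gzmd, Gzme or Gzmf in treated libraries 1 and 2.

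The table held 8886351 to 9403710 reads in a treated library and 8484736 to 9248214 in a PBS library. It lists only genes below an authors' q-value of 0.05, which were 2734 higher and 3733 lower genes among 17077 tested. The authors' deposited table had all 9 members higher, against 16.0% of the genes tested. Since the members were taken from the table, their passing that threshold is no result. Cd8b1, the gene of the CD8 beta chain, had 13357, 18056 and 14954 normalised reads in treated libraries 1 to 3, against 4546, 12329 and 6682 in PBS libraries 1 to 3. Markers of other cells were present too. The 15 myeloid markers, all in the table and 13 of them lower, summed to between 8139 and 20951 normalised reads in treated libraries and between 58901 and 72989 in PBS libraries. Of 10 stromal and endothelial markers, 9 were in the table and all were lower, at 2359 to 12945 reads in treated libraries and 41069 to 63602 in PBS libraries; the treated maximum was library 1 in both lists. Their part in the granzyme values was not tested, and fewer cells of a type cannot be told apart from less RNA per cell in bulk samples.

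Every granzyme gene was higher in the treated libraries than in the PBS libraries, without overlap. Among all genes of the table, 42.1% had their 3 treated libraries above their 3 PBS libraries. The values below are normalised reads, which are the deposited counts divided by size factors recovered from the authors' own log2 changes. Tests are edgeR's quasi-likelihood test, with Benjamini-Hochberg adjustment over 17077 genes and a threshold of 0.05. This fit called 6.04% of the 17077 genes higher and 13.6% in either direction. Only genes of the table could be fitted, so the rest of the 17077 could not be called. Of the 6251 table genes fitted, it called 16.5% higher and 37.2% in either direction. It called 8 of the 9 granzymes, all higher. Gzmk was the exception. DESeq2, which called 15.7% of the 17077 genes and 41.4% of the 6467 table genes higher, called all 9. In either direction DESeq2 called 98.2% of the table genes. All these shares come from the libraries on which the table was selected. The members' median log2 change was 2.55, against -0.57 over the 6251 genes fitted.

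**Figure D1:**
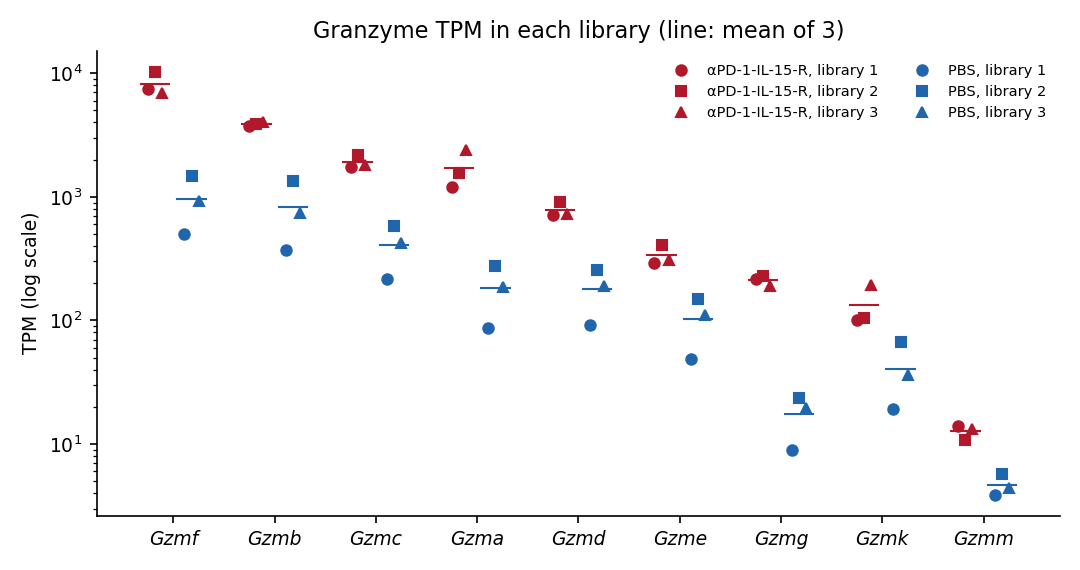
Deposited TPM (an abundance scaled for transcript length and library size, log axis) of each granzyme gene in each library, treated libraries in red to the left and PBS libraries in blue, with a line at each mean of 3. In all 9 genes the 3 treated points lie above the 3 PBS points, and PBS library 2 is the highest and PBS library 1 the lowest of the PBS points.

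Gzmb encodes the protease best known for killing target cells. It had 62495, 70199 and 71765 normalised reads in treated libraries 1 to 3, against 5492, 19123 and 9855 in PBS libraries 1 to 3. The treated libraries lay close together, with a coefficient of variation (CV, the SD as a percentage of the mean) of 7.28%, while the PBS libraries had a CV of 60.6%. Gzmb rose by 2.57 on the log2 scale (SE 0.47), which is 5.93-fold, with an edgeR adjusted p of 0.041.

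Gzma encodes the tryptase-like granzyme A and showed the largest gain of the genes outside chromosome 14. Its reads were 10023, 14052 and 20829 in treated libraries 1 to 3, against 635, 1937 and 1217 in PBS libraries 1 to 3. The treated libraries themselves differed 2.08-fold from lowest to highest, library 3 being the highest. The log2 change was 3.57 (SE 0.52, edgeR adjusted p = 0.04), or 11.9-fold.

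Gzmk, the neighbour of Gzma on chromosome 13, is often used to mark effector-memory-like CD8+ T cells. It had 1140, 1278 and 2289 reads in treated libraries 1 to 3, against 192, 638 and 324 in PBS libraries 1 to 3. The same treated library, library 3, was the high one here as for Gzma. The log2 change of 2.03 (SE 0.52) did not pass, with an edgeR adjusted p of 0.054, and DESeq2 was among the tests that called it.

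The 5 genes Gzmc to Gzmg, the granzymes found beside Gzmb in mice, held the gene with the largest fold and the gene with the most reads. Gzmg had 1893, 2135 and 1734 reads in treated libraries 1 to 3, against 68.3, 172 and 136 in PBS libraries 1 to 3. This was a rise of 3.94 on the log2 scale (SE 0.37, edgeR adjusted p = 0.04), or 15.3-fold, over a low PBS level. Gzmf had 64273, 96148 and 63117 reads in treated libraries 1 to 3, against 3830, 10757 and 6395 in PBS libraries 1 to 3. On the log2 scale this was 3.41 (SE 0.44, edgeR adjusted p = 0.04), or 10.7-fold, and treated library 2 stood above the other two.

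The remaining members of that cluster changed less. Gzmc had 15819, 21209 and 17394 reads in treated libraries 1 to 3, against 1743, 4498 and 3044 in PBS libraries 1 to 3, or 2.55 on the log2 scale (SE 0.37, edgeR adjusted p = 0.04). Gzmd had 6482, 8932 and 6927 reads in treated libraries, against 732, 1953 and 1373 in PBS libraries (log2 change 2.46, SE 0.39, edgeR adjusted p = 0.04). Gzme had 2601, 3916 and 2904 reads in treated libraries, against 381, 1107 and 773 in PBS libraries (log2 change 2.06, SE 0.42, edgeR adjusted p = 0.043). In all 3 genes treated library 2 was the highest treated library, as it was for Gzmf and Gzmg.

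Gzmm, which encodes granzyme M and in humans is best known from NK cells, had the fewest reads and the smallest change. It had 197, 164 and 194 reads in treated libraries 1 to 3, against 48.9, 70.1 and 50.1 in PBS libraries 1 to 3. Its log2 change was 1.71 (SE 0.26, edgeR adjusted p = 0.04), or 3.28-fold. Here treated library 2 was the lowest of its group, unlike for Gzmc to Gzmg.

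The calls depended on which libraries entered the edgeR fit. It called 0 of the 9 granzymes, and 0 genes of the whole table, without treated library 2, treated library 3, PBS library 1 or PBS library 3. Each of the 9 kept an unadjusted edgeR p under 0.05 in those fits. So did 4394 of 6350, 4306 of 6357, 4884 of 6290 and 4222 of 6264 fitted genes, in the same order. The edgeR fit called all 9 without treated library 1 or PBS library 2, where it called 23.7% and 26.1% of the fitted table genes higher. DESeq2 called all 9 in each of these 6 cases, and between 17.8% and 39.4% of the table genes higher.

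Replicates lay further apart in the PBS group. All 9 granzymes had a larger CV among the PBS libraries than among the treated libraries, against 51.6% of the 6428 table genes with reads in both groups. The median CV of the members was 17.5% in treated and 48.2% in PBS libraries. PBS library 2 was the highest and PBS library 1 the lowest PBS library for all 9 genes. Cd8b1 and the summed T cell markers had that order too, so it was not particular to the granzymes. Among treated libraries the order differed by gene, library 2 being the highest for 5 genes, library 3 for 3 and library 1 for 1.

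TPM divides reads by transcript length, so it allows levels to be compared between genes. Gzmf had the highest TPM of the family in every library. It had 7415, 10267 and 6903 TPM in treated libraries 1 to 3, against 500, 1469 and 931 TPM in PBS libraries 1 to 3. Among the table's genes it ranked 11th, 5th and 15th in treated libraries and 155th, 81st and 98th in PBS libraries. Gzmb came next in every library, with a mean of 3902 ± 160 TPM in treated and 822 ± 493 TPM in PBS libraries (SD, n = 3 each). Gzmg stood furthest apart in this ranking, at the 321st, 303rd and 361st place in treated libraries, against the 4011th, 2438th and 2942nd in PBS libraries.

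In treated libraries the order by mean TPM was Gzmf, Gzmb, Gzmc, Gzma, Gzmd, Gzme, Gzmg, Gzmk and Gzmm. Of these neighbours, Gzmc and Gzma overlapped in their ranges over the 3 libraries, as did Gzmg and Gzmk, and both pairs changed places in library 3. In PBS libraries Gzmk stood above Gzmg in each library, and Gzma and Gzmd changed places between libraries. The PBS ranges of neighbouring genes overlapped throughout except those of Gzmg and Gzmm.

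The make-up of the granzyme RNA separated the groups as well. A gene's share of the summed granzyme TPM does not depend on how libraries are scaled to each other. The 9 shares add up to the whole, so they are not independent. Gzmf held 47.9%, 52.5% and 41.6% in treated libraries 1 to 3, against 37.1%, 35.1% and 35.2% in PBS libraries 1 to 3. Its share was thus above the PBS range in every treated library. Gzmb held 24.3%, 19.9% and 24.5% in treated libraries 1 to 3, against 27.6%, 32.3% and 28.2% in PBS libraries 1 to 3. Although its reads were higher, its share was below the PBS range in every treated library.

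Among the smaller shares, Gzma and Gzmg were larger in treated libraries, and Gzmc, Gzmd, Gzme, Gzmk and Gzmm were smaller. Gzma held 10.1 ± 3.7% in treated and 6.68 ± 0.29% in PBS libraries (SD, n = 3 each). The difference of 3.38 percentage points was 1.24 without treated library 3, where Gzma held 14.3%. Gzmg held 1.24 ± 0.15% in treated and 0.656 ± 0.092% in PBS libraries. Gzmc held 11.1 ± 0.2% in treated and 15.4 ± 1.2% in PBS libraries, and Gzme 1.96 ± 0.12% in treated and 3.77 ± 0.34% in PBS libraries. Gzmk held 0.784 ± 0.331% in treated and 1.47 ± 0.12% in PBS libraries. Gzmm held 0.0754 ± 0.0182% in treated and 0.197 ± 0.082% in PBS libraries, a difference of -0.121 points that was -0.0751 without PBS library 1. None of the 9 shares overlapped between the groups, each with p = 0.1 (exact permutation test, two-sided, adjusted p = 0.1), the smallest p that 3 against 3 libraries allow.

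**Figure D2:**
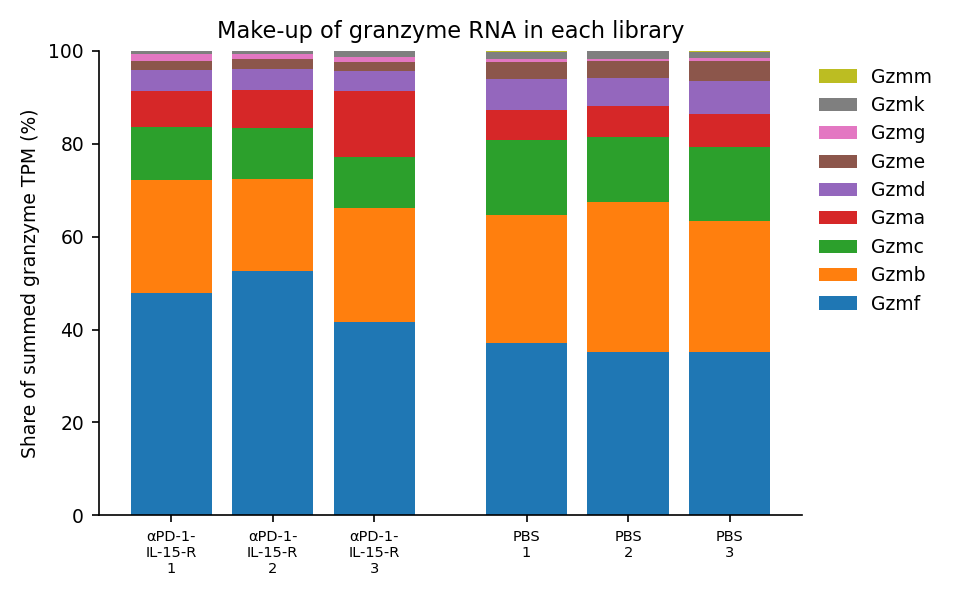
Share of the summed granzyme TPM held by each gene (percent, stacked) in each treated library, left, and each PBS library, right. Gzmf fills 41.6% to 52.5% of the treated bars and 35.1% to 37.1% of the PBS bars, while Gzmb fills 19.9% to 24.5% of the treated bars and 27.6% to 32.3% of the PBS bars.

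Within the Gzmc to Gzmg cluster, some ratios between genes separated the groups and others did not. The 5 genes together held 66.2 ± 5.9% in treated and 62.3 ± 2.6% in PBS libraries (SD, n = 3 each), which overlapped (exact permutation p = 0.4, two-sided). The TPM ratio of Gzmf to Gzme was 24.2 ± 1.7 in treated and 9.55 ± 0.96 in PBS libraries, and that of Gzmf to Gzmc 4.26 ± 0.47 in treated and 2.33 ± 0.16 in PBS libraries. The ratio of Gzmg to Gzme was 0.636 ± 0.096 in treated and 0.174 ± 0.013 in PBS libraries. In contrast, the ratio of Gzmd to Gzmc was 0.410 ± 0.011 in treated and 0.436 ± 0.015 in PBS libraries, with overlapping groups (exact permutation p = 0.2, two-sided). For the chromosome 13 pair, the ratio of Gzma to Gzmk was 13.1 ± 1.6 in treated and 4.58 ± 0.49 in PBS libraries. The ratios that did not overlap had an exact permutation p of 0.1 each.

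By reads rather than TPM, the leading gene was not the same everywhere. The reference transcript of Gzmb, at 1436 bases, is longer than that of Gzmf, at 919 bases. Gzmb held 41.9% to 47.5% of granzyme reads in PBS libraries and was the largest there. Gzmf was the largest in treated libraries 1 and 2, at 39.0% and 44.1%. In treated library 3 Gzmb led, with 38.3% against 33.7% for Gzmf.

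The start sites of the cluster genes were read for the letters they share, because Gzmf and Gzmg changed most among 5 genes of similar sequence. Over the RefSeq promoter windows of GRCm38.p6, from 250 bases before to 50 after each start, Gzmc to Gzmg were 73.5% to 93.4% identical. Gzmb, their neighbour, was 43.6% to 48.0% identical to them. The stretches below, 95 bases on the minus strand of chromosome 14, end between 45 and 5 bases before the start. Capitals mark TGTGGT, a RUNX motif, TGACGTCA, a cyclic AMP response element (CRE), and, in Gzmb, TGAGTCA, a form of the AP-1 motif TGANTCA.

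Gzmf, chr14:56211452-56211546: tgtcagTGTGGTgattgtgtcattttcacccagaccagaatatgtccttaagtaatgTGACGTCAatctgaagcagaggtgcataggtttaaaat
Gzmg, chr14:56159619-56159713: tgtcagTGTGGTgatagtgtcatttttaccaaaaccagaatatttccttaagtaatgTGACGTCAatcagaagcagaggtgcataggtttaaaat
Gzmc, chr14:56234677-56234771: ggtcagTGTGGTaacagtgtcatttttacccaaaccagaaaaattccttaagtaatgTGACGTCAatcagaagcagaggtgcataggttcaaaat
Gzmd, chr14:56132617-56132711: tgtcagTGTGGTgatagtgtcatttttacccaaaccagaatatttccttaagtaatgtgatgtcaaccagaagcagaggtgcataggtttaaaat
Gzme, chr14:56120650-56120744: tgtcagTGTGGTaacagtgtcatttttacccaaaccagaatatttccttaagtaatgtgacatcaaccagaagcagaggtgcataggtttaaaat
Gzmb, chr14:56262339-56262433: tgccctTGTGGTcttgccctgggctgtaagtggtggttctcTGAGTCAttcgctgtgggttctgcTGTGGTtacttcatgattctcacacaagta

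The motifs were searched on both strands in all 32851 windows of that table, and they were chosen with these values and letters in view. The CRE occurred in 1.79% of all windows and, among the members, in those of Gzmf, Gzmg and Gzmc. Their fold changes were 10.7, 15.3 and 5.86, and those of Gzmd and Gzme, whose windows lack these exact letters, were 5.51 and 4.17. Gzma and Gzmb also lack it, and changed 11.9-fold and 5.93-fold. TGTGGT occurred in 16.8% of all windows and in those of 8 members, all but Gzmk. TGANTCA occurred in 7.81% of all windows and in Gzmb alone among the members. The STAT motif TTCNNNGAA, found in 8.30% of windows, occurred in Gzmb and Gzmm, and the T-box motif TCACAC, found in 14.5%, in Gzmb, Gzmk and Gzmm. No counted match of these motifs overlapped a match of another. A match describes the letters only.

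The family's summed TPM was 15465, 19552 and 16605 in treated libraries 1 to 3, against 1347, 4181 and 2648 in PBS libraries 1 to 3. That was 1.55% to 1.96% of all TPM of a treated library and 0.135% to 0.418% of a PBS library. The fold of the means was 6.31, with an exact permutation p of 0.1, the smallest possible. The PBS libraries alone spanned 3.10-fold.

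T cell markers varied in the same order. Of 17 T cell marker genes listed, 9 were in the table, all of them higher; the other 8, Cd3e, Cd3g, Cd5, Cd6, Cd8a, Trac, Trbc1 and Trbc2, are outside it and have no value here. The 9 are therefore those that passed the authors' threshold. The 9 present summed to 3102, 3692 and 3473 TPM in treated libraries 1 to 3, against 1080, 2992 and 1797 TPM in PBS libraries 1 to 3. Granzyme TPM per T cell marker TPM was 4.99, 5.30 and 4.78 in treated libraries 1 to 3, against 1.25, 1.40 and 1.47 in PBS libraries 1 to 3. The fold of the means was then 3.66 (exact permutation p = 0.1), and the PBS libraries spanned only 1.18-fold. PBS library 2, the highest of its group by summed granzymes, lay between the other two by this ratio.

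**Figure D3:**
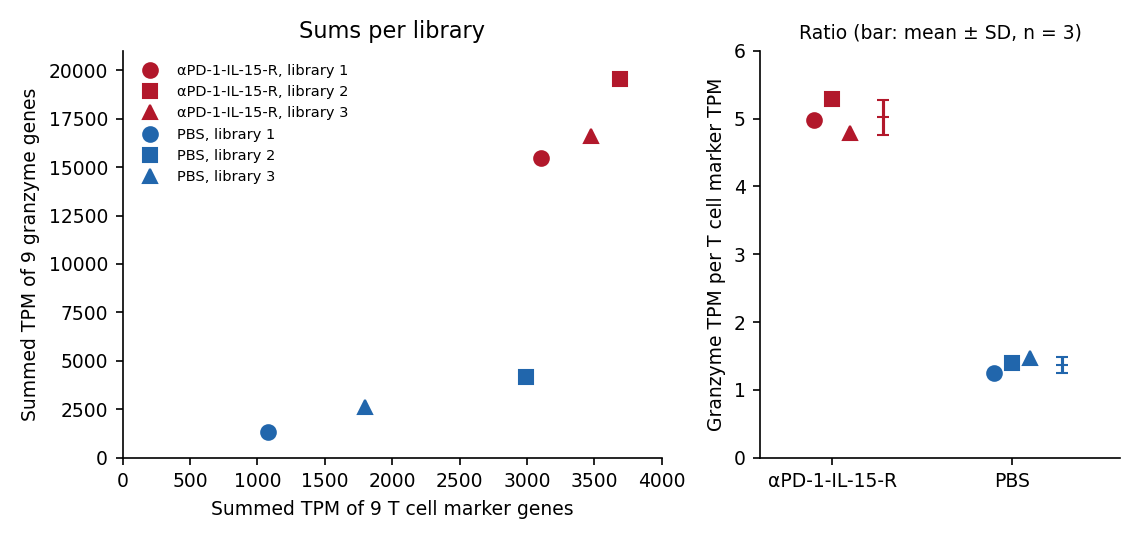
Left, summed granzyme TPM against summed TPM of the 9 T cell marker genes in each library; right, the ratio of these sums, with mean and SD of 3 libraries. PBS library 2 has 2992 T cell marker TPM, close to the 3102 of treated library 1, and 4181 against 15465 granzyme TPM; the ratios are 4.78 to 5.30 in treated and 1.25 to 1.47 in PBS libraries.

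Per gene, this ratio separated the groups for 8 of the 9 granzymes, Gzmm being the one that overlapped. Of all 6467 table genes, 5.41% had their treated ratios all above their PBS ratios. When the counts were scaled on these T cell markers, the log2 changes were 2.77 (SE 0.32) for Gzmg, 2.43 (SE 0.32) for Gzma and 2.27 (SE 0.28) for Gzmf. They were between 0.91 and 1.49 for Gzmb, Gzmc, Gzmd, Gzme and Gzmk, and 0.45 (SE 0.44) for Gzmm. All 9 kept their direction, with a median of 1.39, while the median of all fitted genes was at -1.99 under this scaling. The edgeR fit then called 0 of the 9, and 0 genes in all. An unadjusted edgeR p under 0.05 was reached by 8 of the 9 and by 4026 of the 6304 genes fitted. With the same scaling DESeq2 called 6, all but Gzme, Gzmk and Gzmm. It called 3777 of the 6467 table genes in either direction, of which 45 were higher, or 0.264% of the 17077 genes tested.

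**Figure D4:**
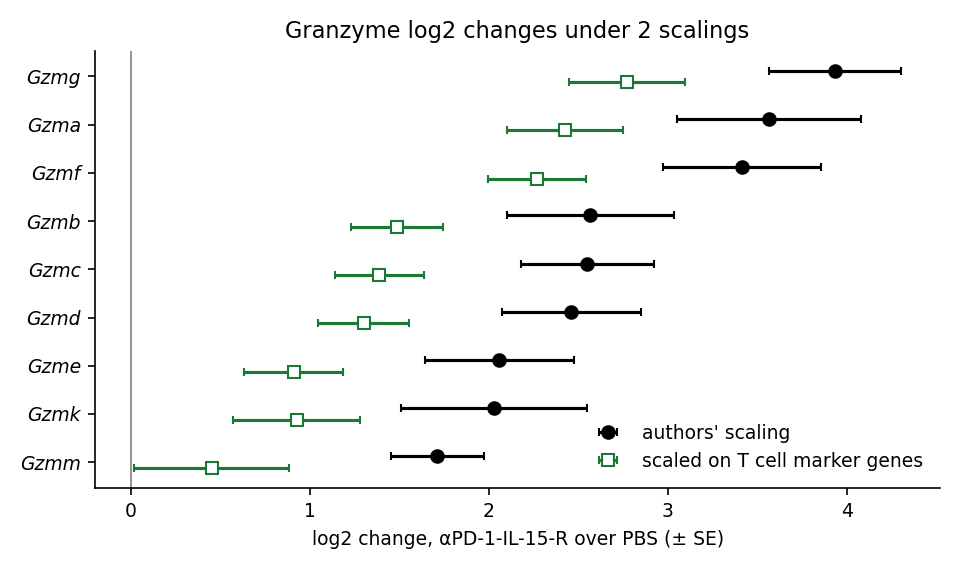
Log2 change of each granzyme, treated over PBS, with SE, under the authors' scaling (filled circles) and scaled on the T cell marker genes (open squares). All 18 points lie above 0, from 0.45 for Gzmm with T cell marker scaling to 3.94 for Gzmg with the authors' scaling.

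NK cells also make granzymes, and mast cells and basophils make related granule proteases. Of 12 NK cell markers, 10 were in the table, 7 higher and 3 lower, and they summed to 12030, 14667 and 12730 normalised reads in treated libraries 1 to 3, against 6518, 7949 and 7712 in PBS libraries 1 to 3. Ncr1, the NK cell receptor NKp46, had 85.0, 63.5 and 68.4 reads in treated libraries 1 to 3, against 24.9, 44.8 and 33.7 in PBS libraries 1 to 3. Klrb1c, from the same list, had 2357, 3140 and 2897 reads in treated libraries 1 to 3, against 109, 297 and 185 in PBS libraries 1 to 3. Both were picked from the 7 higher ones, and the 3 lower ones are not shown singly. The values of Ncr1 and Klrb1c therefore do not stand for the list. Of 11 mast cell and basophil markers only Mcpt8 was in the table, with at most 15.3 reads in a treated and 3.9 in a PBS library. None of 6 B cell markers was in the table. Listed markers outside the table have no value here, so their levels are not known. The part of NK cells in the granzyme values was not tested.

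Genes that act with granzymes were followed on 3 lists totalling 43 genes, of which 23 were in the table, 15 higher and 8 lower. The edgeR fit called 5 higher and 4 lower, 9 of 23, a share near the 37.2% of all fitted table genes that it called in either direction. It called 0 of the 23 without treated library 2, treated library 3, PBS library 1 or PBS library 3, fits that called 0 table genes. Without treated library 1 it called 18 partner genes and 71.6% of the fitted table genes, and without PBS library 2 it called 19 and 47.8%. The median log2 change was 0.99, against 2.55 for the granzymes and -0.57 for all fitted genes. Scaled on the T cell markers, the lists split into 8 higher and 15 lower, with a median of -0.20, so their direction depended on the scaling. Under that scaling 585 of the 6304 fitted genes were higher and 5719 lower, with a median of -1.99. A log2 change below 0 under T cell marker scaling was thus shared by most fitted genes.

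For activation, storage and delivery, 12 of 17 genes were in the table, 6 higher and 6 lower, or 3 higher and 9 lower with T cell marker scaling. Rab27a and Stxbp2, which dock granules and prepare them for release, were called higher, although Stxbp2 was lower with T cell marker scaling. Ctsc, which encodes the activating protease cathepsin C, fell: it had 2797, 2602 and 2396 normalised reads in treated libraries 1 to 3, against 3857, 5055 and 5576 in PBS libraries 1 to 3. Its log2 change was -0.89 (SE 0.17, edgeR adjusted p = 0.041). Myeloid cells also express Ctsc, and their markers were lower as given above, but the part of those cells in its values was not tested. Lamp2, a lysosomal membrane protein, fell by 1.35 on the log2 scale (SE 0.28, edgeR adjusted p = 0.044).

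The genes of this list with the most reads did not pass the edgeR threshold. Srgn, which encodes serglycin, had 17167, 21458 and 19956 normalised reads in treated libraries 1 to 3, against 6154, 15054 and 9941 in PBS libraries 1 to 3 (log2 change 0.91, SE 0.33, edgeR adjusted p = 0.1). Nkg7, a granule membrane protein needed for degranulation, stood at 0.93 (SE 0.36, edgeR adjusted p = 0.13). Both log2 changes were below 0 with T cell marker scaling. Calr, the calcium-binding granule protein calreticulin, was at -0.31 (SE 0.11, edgeR adjusted p = 0.098), and above 0 with median-ratio scaling. Prf1, the perforin gene, was picked after its values were seen and had 8191, 10286 and 9388 reads in treated libraries 1 to 3, against 2227, 5516 and 2906 in PBS libraries 1 to 3. Its log2 change was 1.39 (SE 0.36, edgeR adjusted p = 0.055), and 0.23 with T cell marker scaling.

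Of the granzyme inhibitors, 4 of 12 were in the table, all higher with the authors' scaling and 2 higher and 2 lower with T cell marker scaling. Serpinb9, the mouse inhibitor of granzyme B that shields killer cells from their own enzyme, had 5324, 6627 and 7813 normalised reads in treated libraries 1 to 3, against 1561, 4017 and 2623 in PBS libraries 1 to 3. Its log2 change was 1.27 (SE 0.37, edgeR adjusted p = 0.066). Serpinb6b stood at 1.46 on the log2 scale (SE 0.38, edgeR adjusted p = 0.056) and Serpina3g at 1.03 (SE 0.35, edgeR adjusted p = 0.09). The 1 inhibitor called was Serpinb1a, an inhibitor of neutrophil-type proteases, which was lower with T cell marker scaling.

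Of the listed transcription regulators of killer cells, 7 of 14 were in the table, 5 higher and 2 lower, or 3 higher and 4 lower with T cell marker scaling. Eomes and Batf were called higher under the authors' scaling and stayed above 0 under each scaling tried. Runx3, which promotes the cytotoxic programme, was at 0.99 on the log2 scale (SE 0.34, edgeR adjusted p = 0.088) but below 0 with T cell marker scaling. Id2, an inhibitor of E proteins, was at 1.38 (SE 0.39, edgeR adjusted p = 0.063). Jun, a subunit of AP-1, fell, with 7249, 3786 and 3509 normalised reads in treated libraries 1 to 3, against 20184, 11579 and 17782 in PBS libraries 1 to 3 (log2 change -1.77, SE 0.37, edgeR adjusted p = 0.044). Zeb2 fell by 1.51 (SE 0.20, edgeR adjusted p = 0.04). Other cells of the tumour express Jun and Zeb2 as well, and the part of those cells was not tested.

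**Figure D5:**
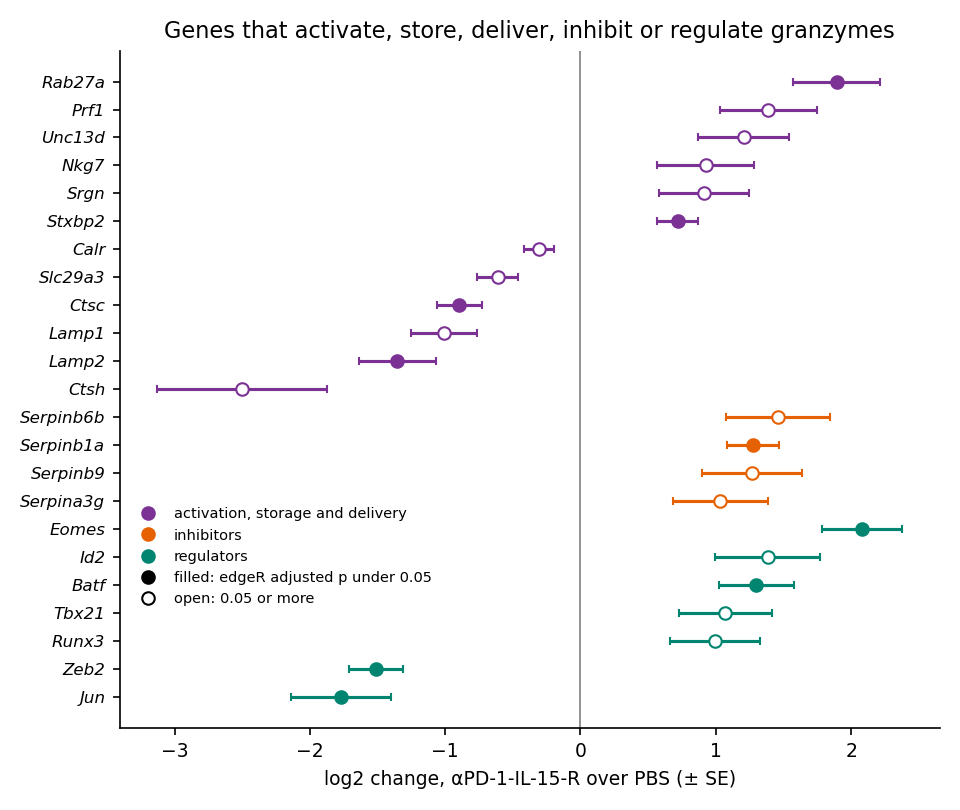
Log2 change, treated over PBS, with SE, of the 23 listed partner genes in the table, by role, under the authors' scaling. Filled points passed edgeR's adjusted threshold, 5 of them above 0 and 4 below.

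Outside the family, the 5 genes with a pattern over the 6 libraries most like the summed granzyme reads were Neb, Igsf5, Cdkn2a, Klrb1a and Eya2, among 5710 genes compared. Likeness was the root mean square difference in centred log2 normalised reads, which ran from 0.17 for Neb to 0.20 for Eya2. Gzmb itself differed by 0.17 and Gzmm by 0.76. Neb encodes the giant muscle protein nebulin. It had 1598, 2547 and 2228 normalised reads in treated libraries 1 to 3, against 125, 514 and 294 in PBS libraries 1 to 3. Klrb1a, a lectin-like receptor gene of NK cells, had 110, 130 and 124 reads in treated libraries 1 to 3, against 10.2, 21.4 and 17.3 in PBS libraries 1 to 3. These genes share all 6 libraries with the granzymes, and the likeness is a description.

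The authors' deposited table also carries a mark for some genes, given to 24 genes as effector, 9 as stem-like and 1 as exhausted. In the authors' deposited table, effector is the mark of 7 granzymes and stem-like that of Gzmk, while Gzmm has none. The fold changes of Gzmk, marked stem-like, and Gzme, marked effector, were 4.08 and 4.17.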

How the data were processed

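Tumour-infiltrating CD8+ T cells were profiled by RNA-seq in 3 αPD-1-IL-15-R and 3 PBS libraries. HISAT2 and RSEM appear in the submitters' processing notes without version. No source used here names the genome build. The authors deposited estimated counts, TPM and FPKM per gene and library, per the file headers, with log10 values of TPM. Their deposited log2 change, p-value and q-value come from a test that no source used here names. Adjusting the deposited p-values over 17077 genes returned the deposited q-values, so the table was read as the genes with q below 0.05.

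Size factors were recovered from the deposited log2 changes of 3105 genes (0.91 to 1.01 in treated and 1.03 to 1.08 in PBS libraries). The whole table of rounded counts was fitted in R 4.3.3 by the robust quasi-likelihood test of edgeR 4.0.16, two-sided, after filterByExpr and with group as the only term. The fit was also run on simulated counts in which most genes did not change. The table's genes were selected by the authors' q-value, so that run does not bear on these calls. Alternatives used TMM, median-ratio or T cell marker scaling, no filter, DESeq2 1.42.0, limma 3.58.1 (voom, and log2(TPM + 1)), adjustment over the table, a replicate block and leaving out each library. Sums and shares were compared by exact permutation (scipy 1.17.1). Likeness to the family used log2(normalised count + 0.5) in genes with a mean TPM of at least 1. Identities were computed with Biopython 1.88 by global alignment. RefSeq held promoter windows for all 9 members.

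The members and lists were chosen with earlier results of these data known. All 9 members are named; partner genes are named where they have the 3 highest read levels of their list or were called lower, and called ones are also named where a count is small. Depth bears on the low genes: Gzmm had between 52 and 199 deposited reads in a library.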

Additional observations from a re-analysis of the deposited data

How the results depend on the processing

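All 9 granzymes stayed higher in the treated libraries under every scaling, test, filter and left-out library tried. The number called was 8 in the edgeR fit and 8 without a filter on low counts. With TMM scaling, median-ratio scaling, DESeq2, limma-voom, limma on log2(TPM + 1) or adjustment over the table only it was 9. It was 0 with T cell marker scaling, and ran from 0 to 9 over the edgeR fits without 1 library (DESeq2: 9 in each). Of the fitted table genes, the edgeR fit called 16.5% higher, and 18.6% without a filter. The share called higher was 32.0% with TMM, 36.2% with median ratios, 41.4% with DESeq2 and 31.7% with limma-voom. It was 7.79% with limma on log2(TPM + 1) and 42.2% with adjustment over the table only. The count for the partner genes was 9, was 0 with T cell marker scaling and was 22 with DESeq2. It ran from 0 to 19 over the edgeR fits without 1 library. DESeq2 called 13 to 23 partner genes without 1 library, the count being 14 without treated library 3. Over these DESeq2 fits, 51.6% to 89.6% of the table genes were called in either direction. The DESeq2 fits without a library, and the one with T cell marker scaling, were chosen after seeing the data. Over the whole table, in either direction, the calls were 2327 in the edgeR fit, 2843 without a filter, 3177 with TMM and 3944 with median-ratio scaling. They were 6351 with DESeq2, 4907 with limma-voom, 3956 with limma on log2(TPM + 1) and 6084 when adjusted over the table only. With T cell marker scaling edgeR called 0, and without 1 library 0 to 4548. All fitted genes had a median of -0.57 on the log2 scale with the authors' scaling, -0.29 with TMM and -0.15 with median ratios. The cause of these differences was not tested.

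With the replicate number as a block, edgeR called 9 granzymes, 20 partner genes and 4337 genes in all. This was 69.4% of the fitted table genes, with 27.9% called higher, under a block by replicate number. The numbers are not said to pair samples, and the deviations of same-numbered libraries correlated at 0.60, 0.60 and -0.23 across genes, treated library 3 correlating best with PBS library 2. The fold of summed granzymes was 7.14 by FPKM and 7.45 by normalised reads, and 5.04 to 8.62 without 1 library. The share differences kept their direction in every case.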

Other observations

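Among the listed cell type markers not described above, Cd4, Foxp3 and Ctla4 were outside the table and so have no value here. The other 2 of the 5 markers of CD4 and regulatory T cells, both higher, summed to 3594, 4251 and 4824 normalised reads in treated libraries 1 to 3, against 914, 2578 and 1845 in PBS libraries 1 to 3. The 2 gamma delta T cell markers in the table were both lower, at 45.4, 4.38 and 12.8 reads in treated libraries 1 to 3, against 165, 99.3 and 153 in PBS libraries 1 to 3. Of these treated libraries, library 1 was the highest for the gamma delta markers, as it was for the myeloid and stromal markers. Of the 5 MC38 carcinoma cell markers, only Cdh1 was in the table, with 774, 1021 and 697 reads in treated libraries 1 to 3, against 411, 591 and 512 in PBS libraries 1 to 3.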
